A study of Quercus x morisii and Quercus suber and Quercus ilex with 16 samples.

Results

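Proteases cut other proteins, and the loci described here are a pair of aspartyl protease loci and a cysteine proteinase locus whose transcripts were measured in outer barks of cork oak, of holm oak and of hybrids between them. The members are LOC111998752, LOC111989591 and LOC111990580, 3 of the 47292 loci in the deposited table of expression values. They were picked with the bark comparisons of these libraries already known, so their levels and differences are given as a description and no p-value is attached to them. LOC111998752 is annotated as a eukaryotic aspartyl protease family protein (best Arabidopsis match AT1G03220), LOC111989591 as an aspartyl protease (AT2G17760) and LOC111990580 as a member of the cysteine proteinase superfamily (AT1G02305). The names are those that the study gave to the loci. Positions in the genome and sequences of the loci were not analysed here.

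Aspartyl proteases cleave peptide bonds with a pair of aspartate residues in their active site. In plants they are a large family, many of them secreted or vacuolar, with members known from Arabidopsis and crops in protein turnover, senescence, cell death and defence. Cysteine proteinases of the papain type use a catalytic cysteine. The Arabidopsis gene AT1G02305 encodes a cathepsin B-type enzyme of this family, and cathepsin B-type enzymes take part in the hypersensitive cell death and the senescence of leaves in Arabidopsis and tobacco relatives. Outer bark holds phellem, whose cells fill their walls with suberin and then die, and in rhytidome also phloem that is cut off by the inner periderms.

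RNA of the inner face of the outer bark was sequenced in 16 libraries, 4 of each bark. Cork was from 4 cork oaks (Quercus suber) whose cork had not been harvested before, and rhytidome from 4 holm oaks (Quercus ilex), each sampled on the south side of the trunk. Rhytidome-like bark was from 4 hybrid trees, of a kind mostly classed as first-generation Q. ilex x Q. suber, also on the south side. Cork-like bark was from 1 hybrid tree, sampled on its north, south, east and west faces and numbered 1 to 4 in that order. The tree is a backcross to cork oak. The cork-like spread lies within a tree, and comparisons with it do not cover the variation between trees. All were adult trees of 1 mixed forest.

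The values are rlog, a log2 of read counts that the authors scaled for depth and shrank for loci with few reads, so that differences at low levels are understated. The table carries no counts, so the depth behind single values is unknown. Median rlog over all loci of a library ran from 1.10 in a cork library to 2.36 in a rhytidome library, and no pair of libraries held identical values. Levels of different loci cannot be ranked against each other, since rlog is not set per length of transcript. Reads of all barks were mapped to a cork oak genome, and its effect on levels in holm oak and the hybrids was not tested. As loci active in phellem, 6 suberin synthesis loci were followed (GPAT5, CYP86B1, KCS2, FAR4 and a pair of ASFT/FHT loci), picked by the study on these libraries. Their mean rlog lay between 15.38 and 15.92 in cork libraries, 14.19 and 14.48 in cork-like ones, 8.52 and 10.34 in rhytidome-like ones and 12.30 and 12.92 in rhytidome ones, with all 6 above 0 in every bark. They were lowest in the rhytidome-like hybrids, although the study saw thicker and closer periderms there than in holm oak. Their level is therefore not read as an amount of phellem. BAM3, a receptor kinase of phloem differentiation, had library medians of 4.81 in cork, 8.29 in the cork-like tree, 12.56 in the rhytidome-like hybrids and 11.37 in rhytidome. Laccase 14, an enzyme of lignin formation, had medians of 8.87, 8.05, 14.81 and 14.54 in the same order of barks. In bulk bark, fewer cells of a type and less RNA per cell cannot be told apart.

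The aspartyl protease locus LOC111998752 was highest in cork and lowest in the rhytidome-like hybrids, below both parent species. Its rlog was 8.84, 9.30, 9.50 and 8.49 in cork trees 87, 89, 90 and 91, and 6.32, 5.94, 5.80 and 6.29 in cork-like libraries 1 to 4. It was 2.54, 2.38, 2.14 and 3.53 in rhytidome-like trees 21, 14, 18 and 20, and 5.43, 5.70, 7.11 and 6.33 in rhytidome trees 33, 67, 68 and 94. Every cork library lay above all the others, as at 8.2% of the 25617 loci with a mean rlog of 1 or more, and every rhytidome-like library below all the others, as at 7.51%, while cork-like bark and rhytidome shared the middle. Means were 9.03 ± 0.45 in cork, 6.09 ± 0.26 on the cork-like tree, 2.65 ± 0.61 in rhytidome-like bark and 6.14 ± 0.74 in rhytidome (SD, n = 4 libraries each).

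The step in mean rlog between cork and rhytidome-like bark at LOC111998752 was 6.38 (standard error 0.39), and 0.226% of these loci had a larger absolute difference between these barks. Cork lay above cork-like bark by 2.94 and above rhytidome by 2.89, both with a standard error of 0.39. The standard errors here and below count the cork-like libraries as separate samples, although they come from a single tree. They do not cover variation between trees for that bark. Between cork-like bark and rhytidome the difference of -0.06 was smaller than its standard error, and the ranges overlapped. Rhytidome-like bark minus rhytidome was -3.50, so that it stood 11.3-fold lower by the rlog means. As rhytidome-like libraries are at 2.14 to 3.53 rlog, where few reads are behind a value, these distances are drawn toward 0 by the transformation.

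The second aspartyl protease locus, LOC111989591, separated all 4 barks. This gene was also used by the study for its RT-qPCR check, whose values were not analysed here. Its rlog was 13.82, 14.10, 14.11 and 13.95 in cork, and 13.65, 13.39, 13.54 and 13.41 in cork-like bark, in the order of libraries given above. It was 10.43, 10.12, 10.55 and 10.68 in rhytidome-like bark, and 12.87, 12.42, 12.05 and 12.35 in rhytidome. The ranges of the 4 barks did not overlap, although the gap between cork and cork-like bark was only 0.17. Of the 25617 loci, 2.2% had 4 ranges without overlap. Means were 14.00 ± 0.14 in cork, 13.49 ± 0.12 on the cork-like tree, 10.44 ± 0.24 in rhytidome-like bark and 12.42 ± 0.34 in rhytidome (SD, n = 4 each).

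Between neighbours in this order, cork exceeded cork-like bark by 0.50, cork-like bark exceeded rhytidome by 1.07, and rhytidome-like bark minus rhytidome was -1.98 (standard error 0.16 for each). The first of these steps is under the log2 difference of 1 that the study required of a differentially expressed gene. Cork lay above rhytidome-like bark by 3.55, and 5.77% of the loci had a larger absolute difference. The aspartyl protease loci thus shared their ends, cork and rhytidome-like bark, and differed in the middle, where LOC111998752 had cork-like bark level with rhytidome and LOC111989591 had it close to cork.

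The cysteine proteinase locus LOC111990580 had the opposite low end. Its rlog was 2.97, 2.87, 3.89 and 1.98 in cork, and 6.41, 5.99, 6.18 and 5.99 in cork-like bark. It was 5.49, 4.89, 4.90 and 5.19 in rhytidome-like bark, and 5.72, 6.53, 5.24 and 6.87 in rhytidome. All cork libraries lay below all libraries of the other barks, a placement that 7.64% of the 25617 loci share. Rhytidome 68, at 5.24, lay inside the rhytidome-like range, and the cork-like range lay inside that of rhytidome.

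Means of LOC111990580 were 2.93 ± 0.78 in cork, 6.14 ± 0.20 on the cork-like tree, 5.12 ± 0.28 in rhytidome-like bark and 6.09 ± 0.75 in rhytidome (SD, n = 4 each). Cork minus cork-like bark was -3.22, cork minus rhytidome -3.17 and cork minus rhytidome-like bark -2.19 on the log2 scale, each with a standard error of 0.42. Cork-like bark and rhytidome differed by 0.05, less than the standard error. Rhytidome-like bark minus rhytidome was -0.97, with overlapping ranges, and cork-like bark exceeded rhytidome-like bark by 1.03. Cork, at 1.98 to 3.89, is in the range where rlog understates differences, and cork 91 and cork 90 stood at the ends of the widest spread within a bark at this locus.

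**Figure D1:**
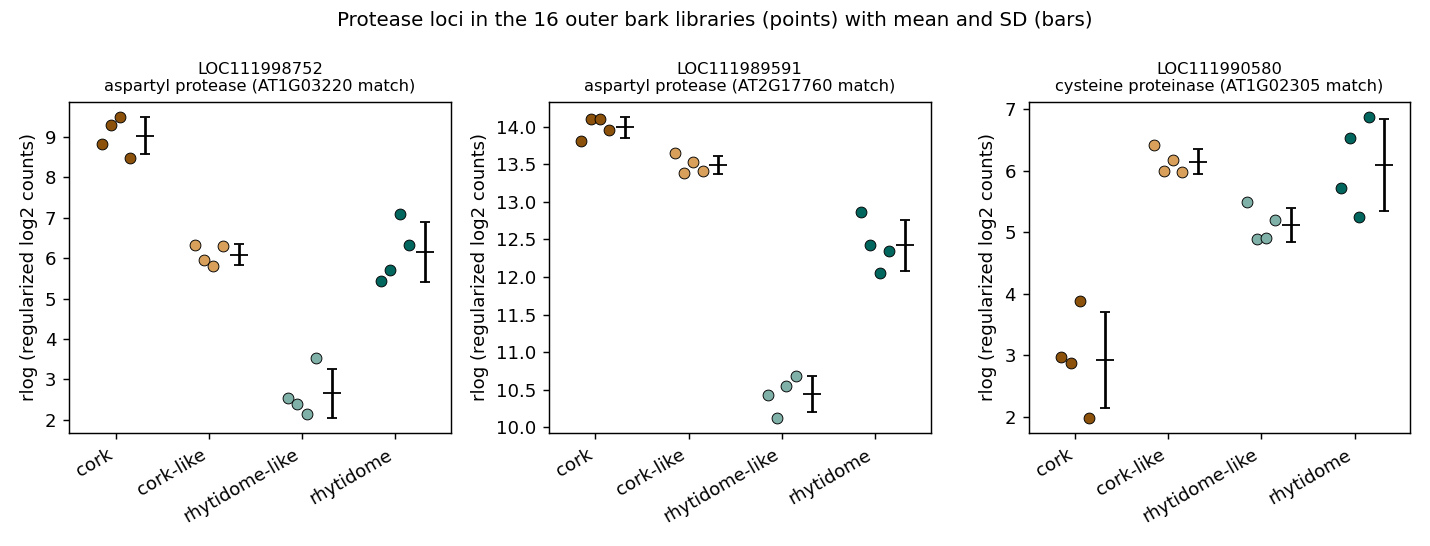
Plotted is the rlog (regularized log2 counts) of the 3 protease loci in each library, with points for libraries grouped by bark and bars for the mean and SD (n = 4). At LOC111998752 cork lies between 8.49 and 9.50 and rhytidome-like bark between 2.14 and 3.53, at LOC111989591 the 4 barks do not overlap, and at LOC111990580 the cork libraries, at 1.98 to 3.89, lie below all others.

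The bark differences of these loci are set against all loci in the plot of differences over the 6 comparisons. In the background, limma with an adjusted p under 0.01 (Benjamini-Hochberg) and an absolute log2 difference above 1 called 29.6% of the 25617 loci between cork and rhytidome, 13.9% between cork and cork-like bark, 31.7% between cork and rhytidome-like bark, 21.5% between cork-like bark and rhytidome, 17.7% between rhytidome-like bark and rhytidome, and 27.3% between the hybrids. Bark differences are therefore common in this table.

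By direction, 11.9% of loci were called higher and 17.7% lower in cork than in rhytidome, 5.39% and 8.46% than in cork-like bark, and 16.3% and 15.4% than in rhytidome-like bark. In cork-like bark 9.63% were called higher and 11.9% lower than in rhytidome, and 15.5% and 11.7% than in rhytidome-like bark. In rhytidome-like bark 5.64% were called higher and 12% lower than in rhytidome. No call is given for the 3 loci themselves, since these comparisons chose them.

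**Figure D2:**
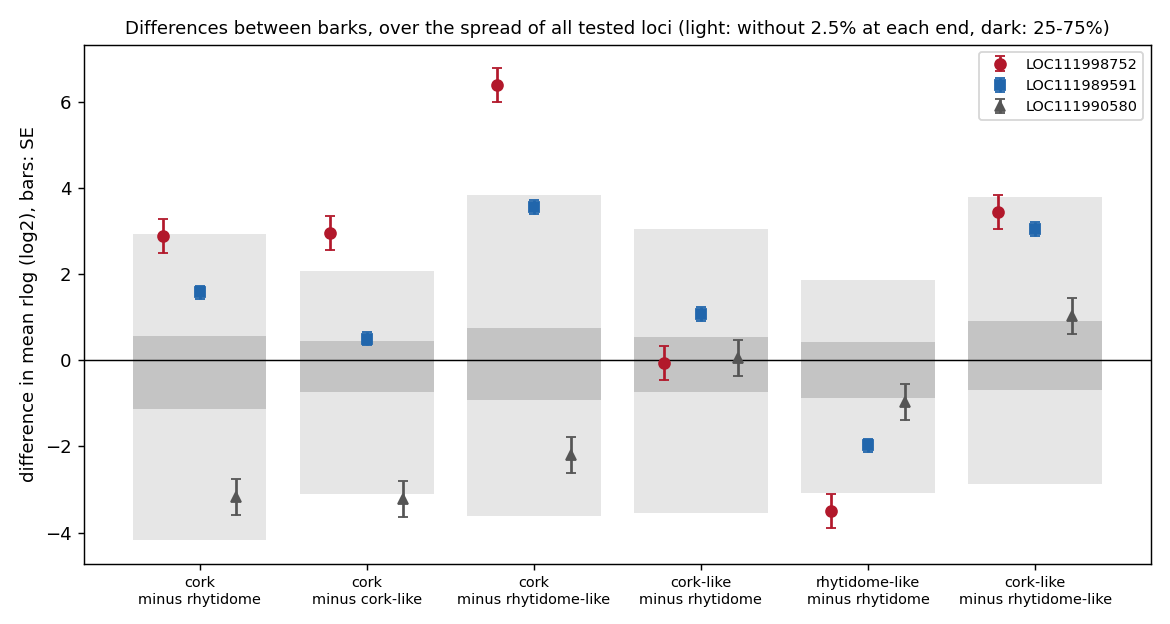
The vertical axis is the difference in mean rlog (log2) between the first and second bark of each of the 6 comparisons, with points for the 3 loci and bars for the limma standard error. Light bands hold all 25617 loci but 2.5% at each end, and dark bands their interquartile range. LOC111998752 lies outside the light band between cork and rhytidome-like bark, at 6.38, between cork and cork-like bark, at 2.94, and between rhytidome-like bark and rhytidome, at -3.50, and LOC111990580 only between cork and cork-like bark, at -3.22.

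The hybrids were next set against the midpoint of the parents, the mean of the cork and rhytidome means. Both aspartyl protease loci lay outside the parental range in the rhytidome-like hybrids and the cysteine proteinase locus did not. At LOC111998752 the rhytidome-like mean of 2.65 deviated from the midpoint of 7.59 by -4.94, and 0.101% of the 25617 loci lay farther below theirs. At LOC111989591 the rhytidome-like mean of 10.44 deviated from the midpoint of 13.21 by -2.76, with 3.09% of loci farther below. For both, all 4 rhytidome-like libraries lay below all 8 parental libraries, as did 8.78% of all loci. At LOC111990580 the rhytidome-like mean was 0.61 above the midpoint of 4.51 and stood 30.8% of the way from rhytidome to cork.

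The cork-like tree took another place at each locus. At LOC111989591 its mean lay 68.2% of the way from rhytidome to cork, 0.29 above the midpoint. At LOC111998752 it was level with rhytidome and below the midpoint, with 6.18% of loci farther below theirs. At LOC111990580 it was again level with rhytidome, 1.63 above the midpoint, and 93.9% of loci had a lower deviation. Only 1 tree stands behind these cork-like values.

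The spread within barks was close to that of other loci at the same level. The pooled SD within barks was 0.55 at LOC111998752, 0.23 at LOC111989591 and 0.57 at LOC111990580. The medians of the loci whose mean rlog was within 0.5 of theirs were 0.66 (2028 loci), 0.24 (925 loci) and 0.74 (1913 loci). Bark accounted for 95.8% of the variance over the 16 libraries at LOC111998752, 98.0% at LOC111989591 and 87.6% at LOC111990580, where the loci of like level had medians of 67.5%, 78.6% and 64.9%. In the same order, 2.12%, 0.541% and 14.3% of the loci of like level had a larger share. The members were picked with the bark comparisons known, which favours a large share, so no support is drawn from these values.

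The members were then compared with the suberin loci and with each other over the 16 libraries. These correlations are descriptions: the points fall into 4 barks, and the suberin loci were picked by the study on the same libraries. Across libraries, LOC111989591 followed the mean of the suberin loci with a Pearson r of 0.98 (Spearman 0.98) and LOC111998752 with 0.92 (Spearman 0.85), while LOC111990580 gave -0.37 (Spearman -0.29). After each bark's mean was taken away, r was 0.41 at LOC111989591, 0.16 at LOC111998752 and 0.04 at LOC111990580. The aspartyl protease loci gave r = 0.90 with each other across libraries (Spearman 0.83) and -0.19 within barks. They share the highest and the lowest bark, and differ in the order of cork-like bark and rhytidome. The suberin loci differ between barks in the same order as LOC111989591, and the part of the phellem content in its differences was not tested.

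**Figure D3:**
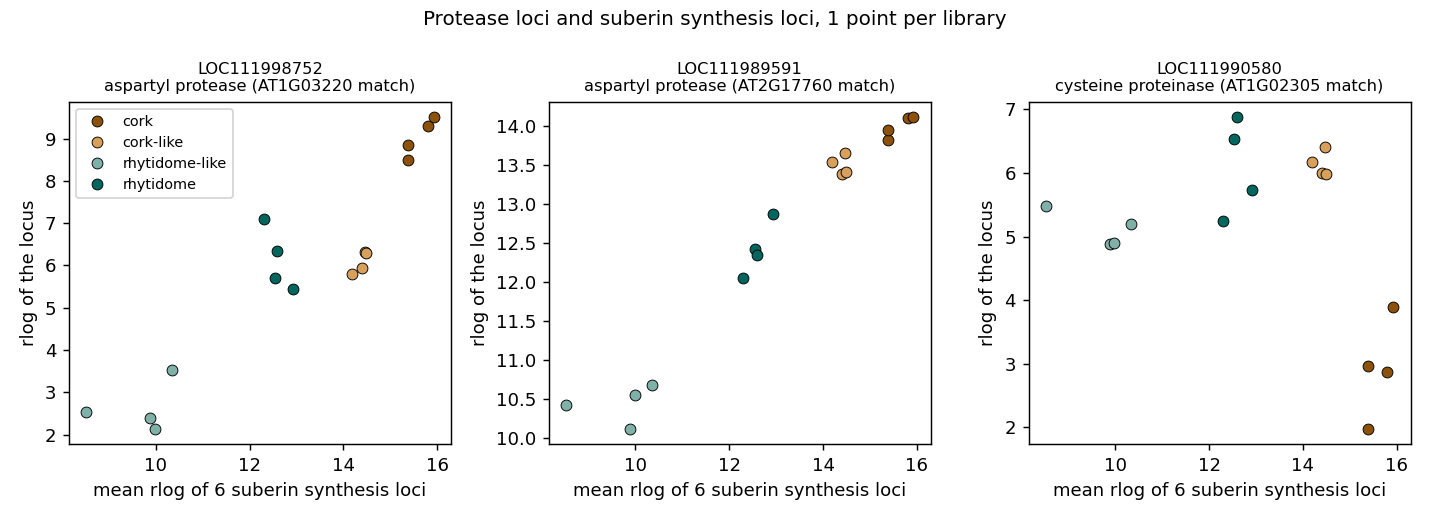
The horizontal axis is the mean rlog of the 6 suberin synthesis loci and the vertical axis the rlog of the protease locus, 1 point per library, coloured by bark. LOC111989591 follows the suberin loci across barks (r = 0.98), LOC111998752 has cork-like bark level with rhytidome although its suberin loci are higher, and LOC111990580 is low in the cork libraries alone.

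Likeness of pattern was measured by the Pearson r over the 16 libraries against 17753 other loci whose mean rlog reached 5. Of the 17754 such loci, 407 carry a name in the tables used. The names come from the study, which singled out suberin genes on these same libraries. Suberin names among the nearest loci are therefore no support for a link with suberin. For LOC111989591 the second nearest of all was LOC112007140, an ASFT/FHT locus, whose enzyme joins ferulate to suberin monomers, at r = 0.99 (0.62 within barks). That locus had means of 16.94 for cork, 15.86 for the cork-like tree, 11.02 for the rhytidome-like hybrids and 13.96 for rhytidome. The nearest locus, LOC112038635, has no name here. MYB102 (LOC111989495), MYB93 (LOC112033310) and MYB9 (LOC112006609), transcription factors that raise suberin genes in other plants, followed at ranks 33, 37 and 48. Their r was 0.98 each (0.51, 0.69 and 0.40 within barks), in a field of 304 loci with an r above 0.95.

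For LOC111998752 the nearest locus was LOC111989581, without a name, at r = 0.97, and 29 loci had an r above 0.95. The nearest with a name was GELP51 (LOC112009101), an esterase of the family that polymerizes suberin, at rank 26 and r = 0.95 (0.31 within barks). Its means were 12.05 for cork, 8.94 for the cork-like tree, 6.72 for the rhytidome-like hybrids and 9.02 for rhytidome, so it too had cork-like bark level with rhytidome. FAR4 (LOC112006016), a fatty acyl reductase of suberin synthesis, was at rank 36 (r = 0.95, 0.21 within barks). A C-8 sterol isomerase locus (LOC111987475) was at rank 43 (r = 0.95, 0.15 within barks) and KCS2 at rank 53 (r = 0.94, 0.25 within barks). A P-loop nucleoside triphosphate hydrolase locus (LOC112019249) was at rank 68 (r = 0.94, -0.18 within barks). LOC111990580 had fewer close neighbours, 1 with an r above 0.95 and 26 above 0.9. The nearest, LOC112031587, had r = 0.96 and means of 5.43 for cork, 10.46 for the cork-like tree, 8.88 for the rhytidome-like hybrids and 10.83 for rhytidome, and the nearest with a name was a DUF1664 protein of unknown function (LOC112012768, rank 23, r = 0.90).

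The tubulin locus LOC112004091, to which the study scaled its RT-qPCR of LOC111989591, itself differed between barks in the same table. It stood at 15.25 ± 0.41 for cork, 15.59 ± 0.14 for the cork-like tree, 12.33 ± 0.59 in rhytidome-like bark and 13.53 ± 0.27 in rhytidome (SD, n = 4 each). Taking the tubulin rlog from that of LOC111989591 in each library left -1.26 ± 0.32 for cork, -2.09 ± 0.16 for the cork-like tree, -1.88 ± 0.49 in rhytidome-like bark and -1.11 ± 0.32 in rhytidome. On this scale cork and rhytidome differed by -0.15, less than their SDs, in place of 1.57 as deposited. Cork-like bark minus rhytidome was -0.99 in place of 1.07, and cork minus rhytidome-like bark 0.62 in place of 3.55. The order of the barks at LOC111989591 thus depends on whether it is read against the depth of the library or against this tubulin locus. The study reports that its RT-qPCR and RNA-seq log2 fold changes were positively correlated, pooled over all the genes it checked. The RT-qPCR values of this gene alone were not compared here.

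**Figure D4:**
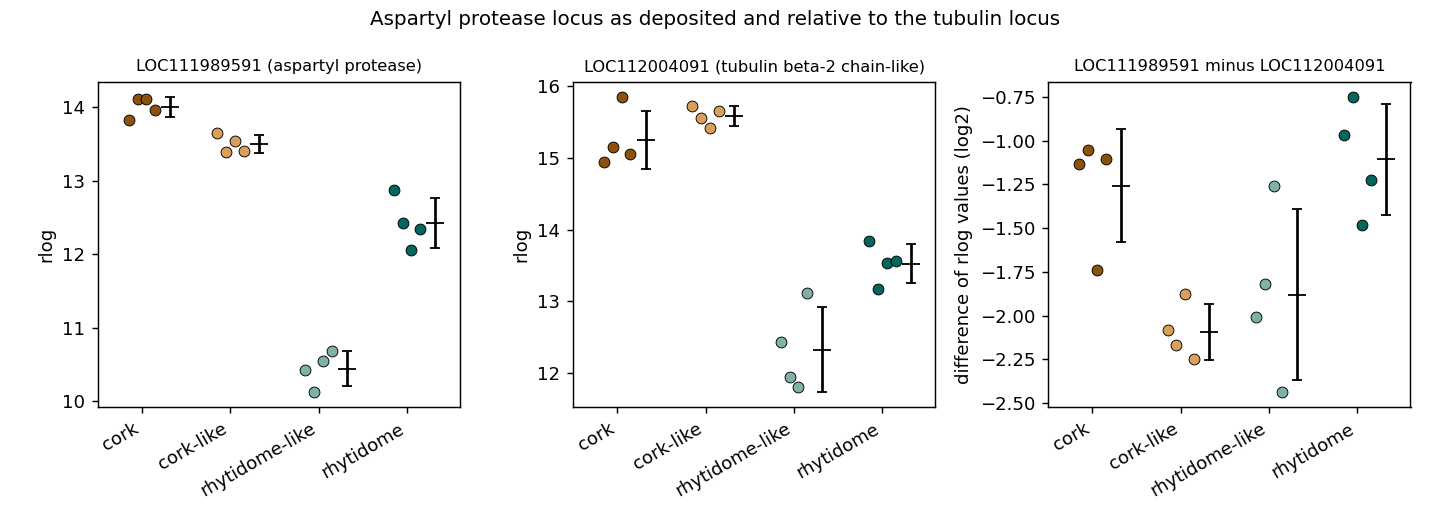
Shown are the rlog of LOC111989591, the rlog of the tubulin locus LOC112004091 and their difference (log2) in each library, by bark, with bars for the mean and SD (n = 4). As deposited the 4 barks are apart at LOC111989591, and relative to tubulin cork (-1.26) and rhytidome (-1.11) overlap.

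The other proteases come from lists of aspartyl proteases, papain-type cysteine proteinases and metacaspases among the loci with a name, which are a small part of the genome. The lists held 15 loci, the 3 members included, and the 12 others could be tested where their mean rlog reached 1, which 7 did. Of the 5 not tested, LOC112023199, an aspartyl protease locus, is listed at 0 in all 16 libraries, and the other four have a mean rlog below 0. Among the 12, limma called 3 of the 7 tested between cork and rhytidome, 2 higher and 1 lower in cork, beside 29.6% of all loci. Between cork and rhytidome-like bark it called 4 of 7, 3 higher and 1 lower in cork, beside 31.7%. Between cork and cork-like bark limma called 0 of 7, also 0 at an unadjusted p under 0.05, beside 13.9%. In the comparisons of cork-like bark with rhytidome, of rhytidome-like bark with rhytidome and of the hybrids with each other 2, 2 and 1 of 7 were called, beside 21.5%, 17.7% and 27.3% of all loci. LOC112026392 and LOC111993971 reached the filter only through the barks where they are high, so their calls are no support in any comparison. Both are among the 3 called between cork and rhytidome, and LOC112003320 is the other. LOC112026392 is also among the 4 called between cork and rhytidome-like bark, with LOC112000993, LOC112002928 and LOC112003320. LOC111993971 is also called in the comparisons of both hybrid barks with rhytidome. The counts are a description and are not read as an enrichment. The median log2 difference of the 7 was 0.42 between cork and rhytidome and 0.18 between cork and rhytidome-like bark, where the median of all loci was -0.16 and -0.14. These medians of the 7 are the values of LOC112000993 and LOC112002929, which were not called in those comparisons. No conclusion is drawn from them.

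The second locus matched to AT1G02305, LOC112003320, differed from the cysteine proteinase LOC111990580 in the place of cork. Its rlog was 14.29, 14.53, 14.37 and 14.13 for the cork trees, and 14.15, 14.04, 13.83 and 13.92 for the cork-like libraries. It ran between 12.86 and 13.64 in rhytidome-like bark, and was 12.87, 12.89, 12.38 and 13.61 for the rhytidome trees. Cork and cork-like libraries all lay above the others, but the share of all loci with this placement was not counted. LOC112003320 rose in cork against rhytidome by 1.39 with a standard error of 0.22 (adjusted p = 8.79e-05 from limma), in cork against rhytidome-like bark by 1.22 (adjusted p = 2.06e-04 from limma) and in cork-like bark against rhytidome by 1.05 (adjusted p = 0.00139 from limma). The calls of cork against rhytidome and against rhytidome-like bark ended when treat, which tests for a difference of more than 1, was used (adjusted p = 0.206 and 0.514 from limma). That of cork-like bark against rhytidome ended with treat, with quantile normalization, with the cork-like libraries averaged, and without rhytidome 68 or cork-like 1 (adjusted p from 1.19e-04 to 1 over 24 alternatives, limma). Where LOC111990580 was lowest in cork, its companion had its highest mean there. That mean was only 0.34 above cork-like bark (adjusted p = 0.24 from limma), with overlapping ranges. Cork-like bark had a higher mean than rhytidome-like bark at both loci. As only uniquely mapped pairs were counted, near-identical copies could be undercounted.

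The other aspartyl protease loci matched to AT1G03220 did not share the range of LOC111998752. LOC111998763 was at 5.78 ± 0.47 in cork, 5.83 ± 0.15 on the cork-like tree, 6.28 ± 0.54 in rhytidome-like bark and 6.39 ± 0.25 in rhytidome (SD, n = 4 each), and it was called in none of the 6 comparisons. Its largest difference, -0.61 between cork and rhytidome, had an adjusted p of 0.108 from limma. LOC112026392, of low abundance, ran between 1.60 and 1.96 in cork, 0.82 and 1.97 on the cork-like tree, 0.44 and 0.78 in rhytidome-like bark and 0.43 and 0.49 in rhytidome. Its mean difference was 1.33 between cork and rhytidome and 1.23 between cork and rhytidome-like bark. With a mean rlog of 1.05 it passed the filter only through cork and cork-like bark, so no test is attached, and its calls ended with treat.

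Metacaspases are distant relatives of caspases, and metacaspase 1 promotes hypersensitive cell death in Arabidopsis. Of 6 loci matched to it 4 were tested, and they differed in which bark was high. LOC111993971 and LOC112002928 are described although their mean rlog is below 5, and they were chosen after their values were seen, so no test is attached to them. LOC111993971 had an rlog between 0.27 and 1.31 in cork, 0.20 and 0.89 on the cork-like tree and 0.19 and 2.26 in rhytidome-like bark, against 4.86, 7.62, 4.51 and 4.57 in rhytidome 33, 67, 68 and 94. Its log2 difference was -4.55 for cork against rhytidome, -4.97 for cork-like bark against rhytidome and -3.91 for rhytidome-like bark against rhytidome, and it passed the filter through rhytidome alone. Without rhytidome 67, which stood apart, the differences of cork and of rhytidome-like bark from rhytidome were -3.81 and -3.17.

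LOC112002928 was high in the rhytidome-like hybrids instead, at 4.98, 4.04, 2.70 and 5.24 in trees 21, 14, 18 and 20, and at 0.43 to 2.67 in the other barks. Its log2 difference was 2.85 for rhytidome-like bark against rhytidome, -3.48 for cork against rhytidome-like bark and -2.83 for cork-like bark against rhytidome-like bark. LOC112000993, at 7.69 to 8.04 in cork and 6.19 to 6.90 in rhytidome-like bark, rose in cork by 1.14 (adjusted p = 0.00128 from limma). That call was lost with treat, with quantile normalization and without rhytidome-like 18. LOC112002929, named to complete the tested metacaspases, at 9.36 to 10.69 in all libraries, was called in none of the comparisons.

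**Figure D5:**
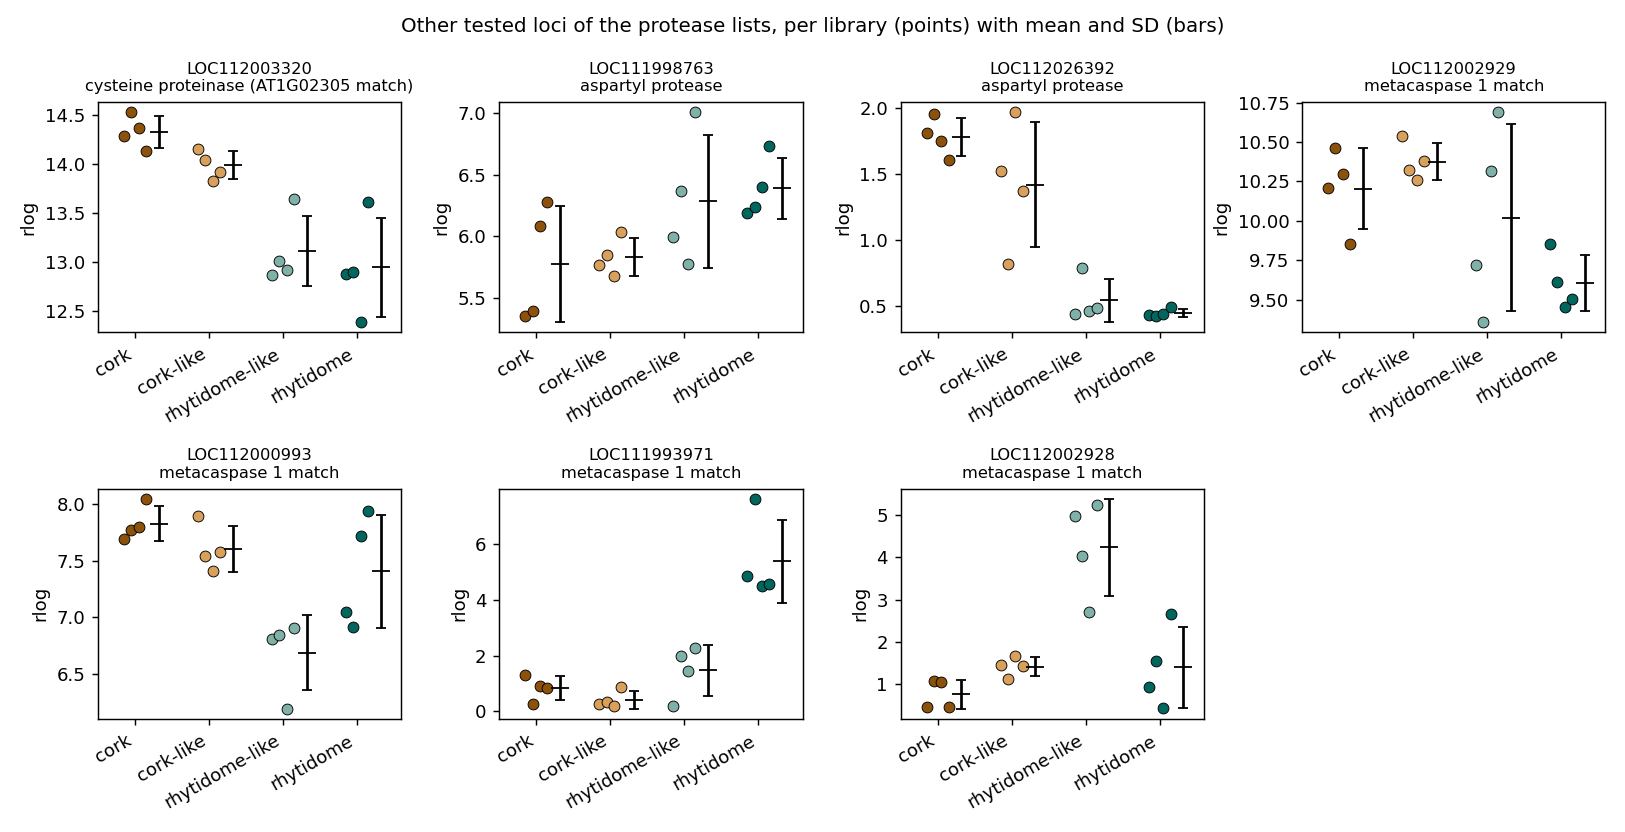
The rlog of the 7 other tested loci of the protease lists is plotted per library (points), by bark, with bars for the mean and SD (n = 4). LOC112003320 is higher in cork (14.13 to 14.53) than in rhytidome (12.38 to 13.61), and of the metacaspase loci LOC111993971 is high in rhytidome and LOC112002928 in rhytidome-like bark.

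A further 13 named loci of other peptidase classes, a list made after the table had been seen, gave 5 whose mean rlog reached 1. No test is attached to them. Their median log2 difference was -0.66 between cork and rhytidome, -0.71 between cork and rhytidome-like bark and 0.49 between the hybrids. The median of all loci was -0.16, -0.14 and 0.05. Between cork and cork-like bark it was -0.998 for these loci and -0.08 for all. The medians of the cork comparisons are values of LOC111983474 or LOC111983779, whose cork means were 0.79 and 0.45. Both passed the filter only through the other barks, which favours a lower value in cork. No conclusion is drawn from these medians.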

How the data were processed

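Outer bark RNA was measured in 16 libraries, 4 per bark, grouped by the titles of the samples. The authors trimmed reads with Trimmomatic 0.40, used GSNAP to map all barks against CorkOak1.0, a genome of cork oak, kept unique concordant pairs, collapsed isoforms to loci, counted with HTSeq 0.11.1 and deposited regularized log2 (rlog) values made with DESeq2 1.38.3. Cufflinks 2.2.1 is also listed. For the strand setting of the counting, the sources used here give nothing.

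From the deposited log2 values, bark means were compared by limma 3.58.1 (R 4.3.3) in a single model of the 16 libraries, its prior variance following the level. Loci entered where their mean rlog reached 1, which 25617 of 47292 did. Calls had a Benjamini-Hochberg adjusted p under 0.01 and an absolute log2 difference above 1, the limits of the study. DESeq2, which the authors used for their calls, needs counts and was not run on the deposited values. The samples of a bark are separate trees, apart from cork-like bark.

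The members and lists were chosen with earlier results of these data known. Names come from 924 loci of the study's tables. The lists hold only loci named there, and phloem and fibres were followed by BAM3 and laccase 14 alone. The genes named are the members, loci with the same Arabidopsis match, called list loci whose mean rlog reached 5 and with no overlap between barks, and the nearest patterns, of which the nearest locus and those with a name are given. The metacaspase loci LOC111993971, LOC112002928 and LOC112002929 fall outside this rule and were added after their values were seen. Promoters and proteins were not analysed here. Alternatives changed the filter, the variance estimate, the scaling, the threshold test and the libraries in the fit. Figures were drawn with matplotlib 3.10.9 in Python 3.11.15.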

Additional observations from a re-analysis of the deposited data

Results flagged for a closer look

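Among 40 groups of 4 libraries of the tested protease loci, 3 held a library far from the others, and chance sets about 1 in 20 groups apart in this way. Rhytidome 67 stood at 7.62 rlog at the metacaspase locus LOC111993971 where the other rhytidome libraries were at 4.51 to 4.86 (gap over range 0.890). Rhytidome-like 18 was at 6.19 at LOC112000993, below 6.81 to 6.90 (0.867), and rhytidome-like 14 at 0.78 at the aspartyl protease locus LOC112026392, above 0.44 to 0.48 (0.883). At LOC111993971 the difference between cork and rhytidome was larger in size than that between cork-like and rhytidome-like bark, by -3.49 on the log2 scale. It passed the threshold in limma, but no support is drawn from that, as the locus passed the filter through rhytidome alone and was chosen after its values were seen. Without rhytidome 67, a setting chosen after seeing the data, this was -2.75.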

How the results depend on the processing

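Of 10 protease list loci tested, the numbers called were 6 between cork and rhytidome, 2 between cork and cork-like bark, 7 between cork and rhytidome-like bark, 3 between cork-like bark and rhytidome, 4 between rhytidome-like bark and rhytidome, and 3 between the hybrids. These include the 3 members, chosen on these comparisons, so they show only how the settings act and are no result about the members. Without the members the numbers called were 3, 0, 4, 2, 2 and 1 of 7, some of them calls of LOC112026392 or LOC111993971, which are no support. In the same order, 29.6%, 13.9%, 31.7%, 21.5%, 17.7% and 27.3% of all loci were called. All counts that follow include the members again. With treat they fell to 3, 3 and 1 between cork and rhytidome, cork and rhytidome-like bark, and cork-like bark and rhytidome. With the cork-like libraries averaged to 1, which leaves a lone library assumed to vary like the others, limma called 0 between cork and cork-like bark and 0 between cork-like bark and rhytidome (2 and 4 at an unadjusted p under 0.05). With a mean rlog of at least 5, the count between rhytidome-like bark and rhytidome was 2, as fewer loci were tested. Leaving out each library in turn gave 6 to 7 between cork and rhytidome-like bark, 1 to 4 between cork-like bark and rhytidome (1 without rhytidome 68) and 3 to 4 between the hybrids, and moved no other count. No direction of a member difference above 1 in size turned. Library medians over the tested loci were shifted between barks by up to 0.37 in size, and median centring gave -1.60 for LOC111989591 between rhytidome-like bark and rhytidome. Quantile normalization gave -2.28 for LOC111990580 between cork and rhytidome. No paired analysis was possible because the barks share no tree or replicate numbers. Depth is not held in rlog values.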
